A study of Homo sapiens with 6 samples.

Results

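The collagen genes were followed in MDA-MB-231, a mesenchymal cell line from a human breast cancer, after lentiviral short hairpin RNA against GPR81. They were taken as every gene symbol made of COL, a type number, the letter A and a chain number, which gave 44 of the 26255 symbols in the table. GPR81, also named HCAR1, is a receptor for lactate that couples to the inhibitory G protein and lowers cyclic AMP. RNA-seq was available for 6 libraries of puromycin-selected cells, 3 carrying the control hairpin shNT and 3 carrying shGPR81. The study made lines with different GPR81 hairpins, and the labels do not say which was sequenced. Nothing in the labels says that the libraries came from separate cultures, so the p-values measure the spread between these libraries, which may be technical.

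Collagens are secreted or membrane proteins built from chains that wind around each other into a stiff helix. Fibrillar collagens pack into the cables of connective tissue, and basement membrane collagens form the sheet under epithelia and around vessels. The remaining classes decorate fibrils, link cells to the matrix, form networks or stay anchored in the plasma membrane. A collagen molecule needs its partner chains, and each class is assembled, trimmed, cross-linked and cut by a shared set of enzymes. In breast tumours much of the collagen comes from fibroblasts, and the carcinoma cells add their own set.

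Values are FPKM, the fragments of a gene per kilobase of transcript, scaled to library size, so levels of different genes could be compared per length. The targeted gene itself, HCAR1, had 0.968, 1.02 and 1.36 FPKM in the shNT libraries and 0.978, 0.891 and 0.396 FPKM in those labelled shGPR81. The groups overlapped, and the log2 fold change of -0.57 (SE 0.31) had an adjusted p of 0.380, so the groups are named here as labelled. The paper itself reports significantly less GPR81 in its knockdown lines than in shNT cells, by RT-qPCR and by western blotting. The relative depth of the libraries, read from the steps between low FPKM values, was at most 1.07 times that of the lowest library. The submitters' software scales libraries to each other, so this depth is a scaling factor and need not follow the number of reads sequenced. Of 6 fibroblast markers, DCN, LUM, FAP and POSTN were listed at 0 in every library, PDGFRA was near 0 and THY1 made up nearly all of the summed level of 16.8 to 20.2 FPKM in shNT and 15.3 to 16.8 FPKM in shGPR81. VIM, the intermediate filament of mesenchymal cells, had a mean of 3843 FPKM, the highest of 8 mesenchymal markers. Of these, 4 had a negative and 4 a positive log2 fold change. MSN was higher (0.30, adjusted p = 0.0378), while TGFBI (-0.38, adjusted p = 0.00956) and FN1 (-0.28, adjusted p = 0.0148) were lower. The rest did not pass, VIM among them (0.22, adjusted p = 0.267). Of 8 luminal breast markers, ESR1, PGR and CDH1 were listed at 0, and the list summed to 75.7 to 100.1 FPKM in shNT and 115 to 134 FPKM in shGPR81, most of it KRT19. Of the 5 tested, KRT19 (log2 fold change 0.53, adjusted p = 0.0450) and ERBB3 (0.85, adjusted p = 0.0352) were higher, each in 8 of 14 other settings too. EPCAM (-0.13), FOXA1 (0.11) and GATA3 (0.16) did not pass, and the part of this shift in the collagen values was not tested. In RNA from whole cultures, a change in the number of cells expressing a gene and a change in RNA per cell cannot be told apart.

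Genes are written as risen or fallen below where the adjusted p from limma with Benjamini-Hochberg correction was under 0.05, and as called where the fold change on the log2(FPKM + 0.1) scale was also above 1.5. Of the 44 collagen genes, 19 reached 0.1 FPKM in at least 3 libraries and were tested, 16 had some value above 0 below that filter, and 9 were listed at 0 in every library. COL12A1 and COL6A3 were called higher and COL15A1 was called lower in shGPR81. Across the 14349 genes tested, 2.54% were called, 1.59% lower and 0.955% higher. By adjusted p alone, COL13A1, COL8A1, COL12A1 and COL6A3 rose and COL4A1 and COL15A1 fell, against 5.13% of all tested genes, 3.07% lower and 2.06% higher. The 3 libraries of each group did not overlap in 13 of the 19 tested collagen genes (68.4%), 6 lower and 7 higher, and in 25.6% of all tested genes. The median log2 fold change of the 19 was 0.07, that of all tested genes 0.01, and 8 of the 19 had a negative sign.

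**Figure D1:**
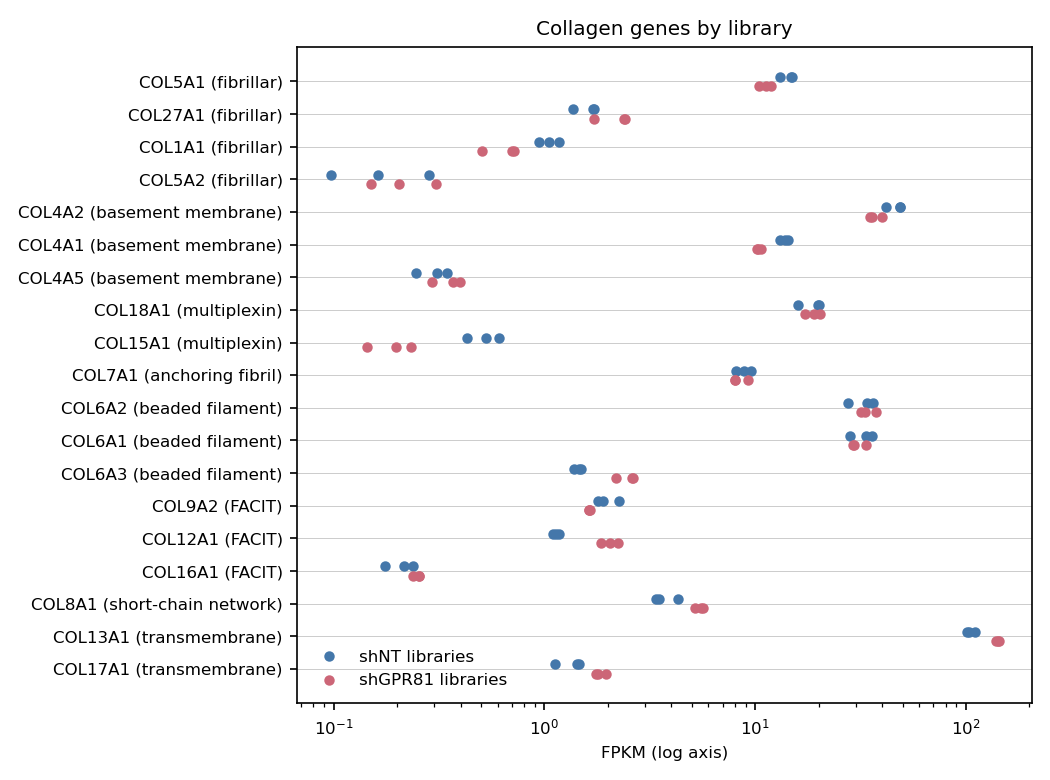
FPKM of the 19 tested collagen genes (log axis) in each of 3 shNT and 3 shGPR81 libraries, 1 point per library, with the class in brackets. COL13A1 stands highest, at 101 to 143 FPKM. The groups do not overlap in 13 of the 19 genes, among them COL13A1, COL12A1, COL6A3 and COL15A1.

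**Figure D2:**
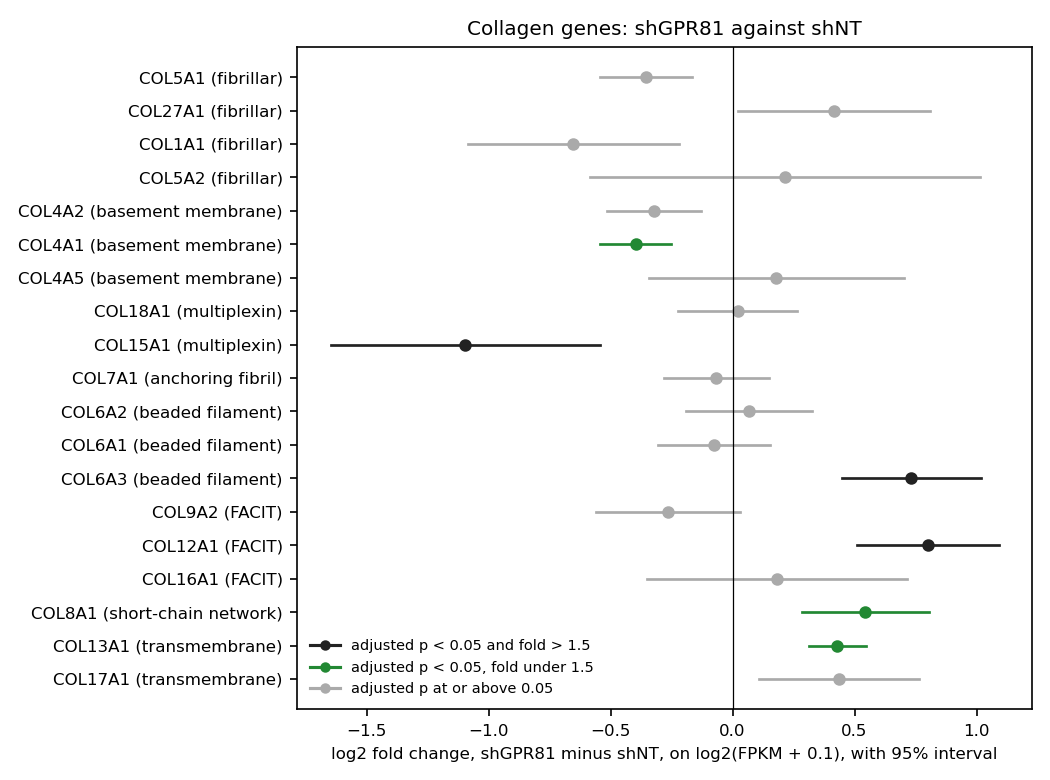
Log2 fold change of the same 19 genes, shGPR81 minus shNT, on log2(FPKM + 0.1), with the 95% interval from limma (3 libraries per group). COL12A1 (0.80), COL6A3 (0.73) and COL15A1 (-1.10) passed both thresholds.

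Sequences before the called genes, COL13A1 and the COL4A1 and COL4A2 pair are shown, so that shared and separate starts can be compared. That before COL8A1, which also rose, is not shown. The sequences come from RefSeq on GRCh38.p14, where 32 of the 44 collagen genes had an entry. Each reads 5′ to 3′ up to the base before the start. Capitals mark matches, on either strand, to 4 short promoter words. The first, TATAAA, is the word of the box that can position the start of transcription. Another, CCAAT, is the usual binding word of nuclear factor Y. The third, GGGCGG, is the GC box of Sp1-type factors. The last, TGACG, is the core of the cyclic AMP response element. No marked matches overlapped each other.
COL4A1 and COL4A2 (the 126 bases between their starts, chr13:110307158-110307283, plus strand, read towards COL4A2): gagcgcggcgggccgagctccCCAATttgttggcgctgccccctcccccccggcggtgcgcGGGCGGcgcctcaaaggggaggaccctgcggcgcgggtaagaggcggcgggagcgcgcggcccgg
COL12A1 (chr6:75206054-75206303, minus strand): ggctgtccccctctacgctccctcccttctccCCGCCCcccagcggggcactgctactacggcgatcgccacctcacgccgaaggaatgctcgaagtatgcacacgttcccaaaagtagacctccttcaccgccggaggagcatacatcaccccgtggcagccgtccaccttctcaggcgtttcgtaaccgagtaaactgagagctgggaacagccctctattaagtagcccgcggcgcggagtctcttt
COL6A3 (chr2:237414165-237414414, minus strand): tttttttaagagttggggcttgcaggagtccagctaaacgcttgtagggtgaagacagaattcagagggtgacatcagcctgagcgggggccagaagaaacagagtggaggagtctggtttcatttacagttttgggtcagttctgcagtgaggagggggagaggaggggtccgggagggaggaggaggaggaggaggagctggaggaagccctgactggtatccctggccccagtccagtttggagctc
COL15A1 (chr9:98943657-98943906, plus strand): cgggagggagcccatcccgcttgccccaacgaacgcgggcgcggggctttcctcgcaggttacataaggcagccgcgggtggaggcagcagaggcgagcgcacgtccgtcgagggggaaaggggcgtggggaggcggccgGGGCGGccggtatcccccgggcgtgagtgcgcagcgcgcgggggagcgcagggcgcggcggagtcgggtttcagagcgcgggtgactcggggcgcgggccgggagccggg
COL13A1 (chr10:69801656-69801905, plus strand): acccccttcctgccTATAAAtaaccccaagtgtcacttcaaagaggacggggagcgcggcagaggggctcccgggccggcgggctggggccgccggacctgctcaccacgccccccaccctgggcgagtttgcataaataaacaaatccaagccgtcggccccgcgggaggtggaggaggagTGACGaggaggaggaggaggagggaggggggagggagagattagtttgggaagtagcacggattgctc

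Over the 250 bases before the start, the GC box was found in 42.6% of 35116 RefSeq promoters and in 18 of the 32 collagen promoters. The nuclear factor Y word was found in 32.0% and in 9 of 32, and the cyclic AMP core in 21.2% and in 6 of 32. TATAAA was found in 10.7% and in 5 of 32. Matches were counted anywhere in these bases, whatever their distance from the start. The TATAAA match before COL13A1 lies near the far end of the 250 bases. GC content was 61.2% before COL12A1, 56.0% before COL6A3, 76.8% before COL15A1 and 64.0% before COL13A1, against a median of 58.0%. The stretch shared by COL4A1 and COL4A2 held 80.2% GC, against a median of 60.3% over 126 bases. It held 1 nuclear factor Y word and 1 GC box. Within 126 bases of their start, 21.1% and 34.6% of promoters hold these, as do 7 and 15 of the 32 collagen promoters. Of the sequences shown, the cyclic AMP core occurred in that of COL13A1 only. These matches describe letters in the sequence and were not tied to a factor or to the direction of a gene.

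In the basement membrane class the abundant chains had lower values in shGPR81, and 1 of the 3 tested members fell. COL4A1 and COL4A2 encode the chains of the common type IV network, are read in opposite directions from the stretch printed above, and were the abundant members of the class. COL4A1 had 13.1, 14.3 and 13.8 FPKM in shNT and 10.3, 10.2 and 10.7 FPKM in shGPR81. Its groups did not overlap, and it fell by 0.40 on the log2 scale (SE 0.06, adjusted p = 0.0126), a fold of 1.32 that stayed under the fold threshold. Its adjusted p was above 0.05 without shNT replicate 2 (0.0731) and in the fits lacking shGPR81 replicate 1 or 2. COL4A2 had 41.6, 48.4 and 48.9 FPKM in shNT and 35.0, 35.9 and 40.1 FPKM in shGPR81. The groups did not overlap here either, with the lowest shNT value just above the highest shGPR81 value, and the log2 fold change of -0.32 (SE 0.08) had an adjusted p of 0.0775. In 3 of 14 other settings its adjusted p was under 0.05, namely the replicate block (0.0413), quantile normalization (0.0305) and the fit without shNT replicate 1 (0.0147). The ratio of COL4A1 to COL4A2 was 0.297 ± 0.017 (SD, n = 3) in shNT and 0.282 ± 0.014 (SD, n = 3) in shGPR81, and its groups overlapped (exact two-sided permutation p = 0.4).

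The minor type IV chains were far lower. COL4A5, which pairs with COL4A6 or with COL4A3 and COL4A4 in specialised basement membranes, had a mean of 0.327 FPKM with overlapping groups (log2 fold change 0.18, 95% interval -0.34 to 0.70). COL4A6 (mean 0.0861 FPKM), COL4A4 and COL4A3 (0.00451 FPKM) were below the filter. COL4A4 had 0.0286, 0.0419 and 0 FPKM in shNT and 0.120, 0.115 and 0.0744 FPKM in shGPR81, which correspond to 4, 6 and 0 reads against 18, 17 and 11 reads. Every shGPR81 library was above every shNT library, and the depth-scaled ratio of the summed reads was 4.37 (95% interval 2.17 to 9.71, exact binomial, counting error only). Without a filter its adjusted p was 0.123. COL4A3, which lies head to head with COL4A4 in the genome, did not exceed 0.0184 FPKM in any library.

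Multiplexins, basement membrane collagens whose C-terminal ends can be cut off as endostatin-like fragments, were represented by COL15A1 and COL18A1. COL15A1 (GRCh37, chr9:101705461-101833074, 42 exons) had 0.431, 0.610 and 0.528 FPKM in shNT and 0.234, 0.197 and 0.145 FPKM in shGPR81. The highest shGPR81 value lay below the lowest shNT value, and COL15A1 fell by 1.10 on the log2 scale (SE 0.24, adjusted p = 0.0427), a fold of 2.14. The values correspond to 31, 45 and 38 reads against 18, 15 and 11 reads, a depth-scaled ratio of 0.367 (95% interval 0.253 to 0.523, counting error only). COL15A1 was called in 5 of the 13 other settings it could be tested in. Its adjusted p was above 0.05 with the replicate block, with a pseudocount of 0.01 FPKM, and without shNT replicate 2 (adjusted p = 0.170), shNT replicate 3 (0.117) or any of the shGPR81 replicates (0.0895 to 0.130), and its fold was under 1.5 with a pseudocount of 1 FPKM. COL18A1, the source of endostatin itself, had a mean of 18.6 ± 2.31 FPKM (SD, n = 3) in shNT and 18.8 ± 1.48 FPKM (SD, n = 3) in shGPR81, with overlapping groups (log2 fold change 0.02, 95% interval -0.22 to 0.27). SLC19A1, whose exons overlap those of COL18A1 on the opposite strand, was listed at 0 in all 6 libraries, and without strand the reads of such a pair cannot be told apart.

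Among the 11 fibrillar collagens, 4 were tested, 3 were listed at 0 and no member passed the threshold as reported. COL5A1, a chain of the type V collagen that nucleates thin fibrils, had 13.1, 14.9 and 15.0 FPKM in shNT and 10.5, 11.2 and 11.9 FPKM in shGPR81. Its groups did not overlap, and the log2 fold change of -0.36 (SE 0.08) had an adjusted p of 0.0513. In 5 of 14 other settings its adjusted p was under 0.05, from 0.0146 with chromosome centring to 0.0475 with quantile normalization, and in the rest it reached up to 0.188. COL5A2, the usual partner chain, reached a mean of 0.201 FPKM, and the ratio of COL5A2 to COL5A1 lay between 0.00645 and 0.0257 over the libraries. COL5A3, the other partner, was listed at 0. COL1A1, the main chain of type I collagen of bone, skin and tumour stroma, had 1.18, 0.940 and 1.05 FPKM in shNT and 0.698, 0.503 and 0.719 FPKM in shGPR81. The groups did not overlap (93, 76 and 83 reads against 59, 42 and 60 reads), and the log2 fold change of -0.65 (SE 0.19) had an adjusted p of 0.102. Its fold of 1.57 exceeded the fold threshold without the adjusted p passing.

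The partner chain of type I collagen, COL1A2, was listed at 0 in all libraries, as was COL2A1 of cartilage. COL3A1, the type III chain that accompanies type I in stroma, had a mean of 0.00872 FPKM from 1 read over shNT and 3 reads over shGPR81. COL27A1, a chain of thin non-striated fibrils, went the other way from COL5A1 and COL1A1. It had 1.70, 1.71 and 1.37 FPKM in shNT and 2.39, 2.41 and 1.72 FPKM in shGPR81, the lowest shGPR81 library lying just above the highest shNT library (log2 fold change 0.42, SE 0.17, adjusted p = 0.231). COL11A1, COL11A2 and COL24A1 had values below the filter.

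Beaded filament collagens of type VI, which surround cells and bind other matrix proteins, had 1 chain that rose, COL6A3, while COL6A1 and COL6A2 did not pass. COL6A1 and COL6A2 lie near each other on chromosome 21. COL6A1 had 28.3, 33.5 and 35.8 FPKM in shNT and 29.4, 29.3 and 33.5 FPKM in shGPR81 (log2 fold change -0.08, 95% interval -0.31 to 0.15). COL6A2 had 27.7, 34.0 and 36.4 FPKM in shNT and 33.1, 31.8 and 37.4 FPKM in shGPR81 (0.07, 95% interval -0.19 to 0.32). Both pairs of groups overlapped, and the lowest value of each gene was in shNT replicate 1. COL6A3, the long chain that completes the molecule (GRCh37, chr2:238232646-238322971, 44 exons), had 1.38, 1.48 and 1.46 FPKM in shNT and 2.60, 2.18 and 2.62 FPKM in shGPR81. No shNT value came near the shGPR81 values, and COL6A3 rose by 0.73 on the log2 scale (SE 0.12, adjusted p = 0.0162), a fold of 1.66.

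Per length, COL6A3 stood at 0.0446 ± 0.0040 (SD, n = 3) of the COL6A1 level in shNT and at 0.0803 ± 0.0072 (SD, n = 3) in shGPR81, without overlap. COL6A1 over COL6A2 was 0.996 ± 0.021 (SD, n = 3) in shNT and 0.901 ± 0.016 (SD, n = 3) in shGPR81, also without overlap. For both ratios the exact two-sided permutation p was 0.1, the smallest that 3 against 3 libraries can give. COL6A3 was called in 10 of 14 other settings. Its adjusted p was above 0.05 without shNT replicate 2 (0.0655), and in the fits lacking shGPR81 replicate 1 (0.0810) or replicate 3 (0.0704), and its fold fell under 1.5 with a pseudocount of 1 FPKM. COL6A5 was below the filter and COL6A6 was listed at 0.

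FACIT collagens sit on the surface of fibrils and change how these interact. COL12A1, which binds type I fibrils in tissues under tension (GRCh37, chr6:75794042-75915983, 66 exons), had 1.13, 1.17 and 1.09 FPKM in shNT and 1.86, 2.05 and 2.23 FPKM in shGPR81. The groups lay well apart, and COL12A1 rose by 0.80 on the log2 scale (SE 0.12, adjusted p = 0.0121), a fold of 1.74 and the largest rise among the tested collagen genes. Its transcript has 11725 bases, and the FPKM steps imply about 13400000 to 14400000 reads per library after the submitters' scaling. On that scale these levels amount to an estimated 172 to 188 reads per shNT library and 314 to 370 reads per shGPR81 library. COL12A1 was called in 10 of 14 other settings. Its adjusted p was above 0.05 without shNT replicate 2 (0.0534), and in the fits lacking shGPR81 replicate 2 (0.0629) or replicate 3 (0.0576), and its fold fell under 1.5 with a pseudocount of 1 FPKM.

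COL9A2, a chain of the type IX collagen of cartilage, had 1.80, 2.26 and 1.90 FPKM in shNT and 1.63, 1.65 and 1.62 FPKM in shGPR81. All shGPR81 values lay below all shNT values, giving a log2 fold change of -0.26 (SE 0.13) at an adjusted p of 0.309. Its partner COL9A3 was below the filter and COL9A1 was listed at 0. COL16A1 had a mean of 0.229 FPKM, with groups that did not overlap by a margin of 0.239 against 0.237 FPKM (log2 fold change 0.18, adjusted p = 0.738). COL19A1, COL20A1, COL21A1 and COL22A1 were below the filter, and COL14A1, which like COL12A1 coats fibrils, was listed at 0.

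Transmembrane collagens made up the largest share of collagen transcripts. COL13A1, found at cell adhesions and at neuromuscular junctions, was the most abundant collagen gene in every library. It had 103, 110 and 101 FPKM in shNT and 143, 139 and 143 FPKM in shGPR81. The groups lay apart, and COL13A1 rose by 0.43 on the log2 scale (SE 0.05, adjusted p = 0.00375), a fold of 1.35. Its adjusted p was under 0.05 in all 14 other settings, between 0.00276 and 0.0300, and its fold stayed under 1.5 in each. COL17A1, the hemidesmosome collagen that anchors basal epithelial cells, had 1.46, 1.13 and 1.42 FPKM in shNT and 1.95, 1.76 and 1.79 FPKM in shGPR81. These groups did not overlap either (109, 86 and 106 reads against 156, 139 and 141 reads), and the log2 fold change of 0.44 (SE 0.14) had an adjusted p of 0.140. COL23A1 and COL25A1 were listed at 0.

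Of the short-chain collagens, which form hexagonal networks, COL8A1 of vessel walls and of the membrane behind the cornea was the member expressed. COL8A1 had 3.39, 4.31 and 3.50 FPKM in shNT and 5.18, 5.66 and 5.54 FPKM in shGPR81. All shGPR81 values lay above all shNT values, and COL8A1 rose by 0.54 on the log2 scale (SE 0.11, adjusted p = 0.0352), a fold of 1.46. Without shNT replicate 2, whose value was the highest of its group, COL8A1 also passed the fold threshold, and its adjusted p was above 0.05 without a filter (0.0618), without shNT replicate 3 (0.0881) and without any of the shGPR81 replicates (0.0970 to 0.135). COL8A2, its usual partner, and COL10A1 of growth plate cartilage were below the filter. COL7A1, the anchoring fibril collagen under stratified epithelia, had 8.82 ± 0.708 FPKM (SD, n = 3) in shNT and 8.42 ± 0.709 FPKM (SD, n = 3) in shGPR81, with overlapping groups (log2 fold change -0.07, 95% interval -0.28 to 0.15). Of the members outside these classes, COL26A1 was below the filter and COL28A1 was listed at 0.

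**Figure D3:**
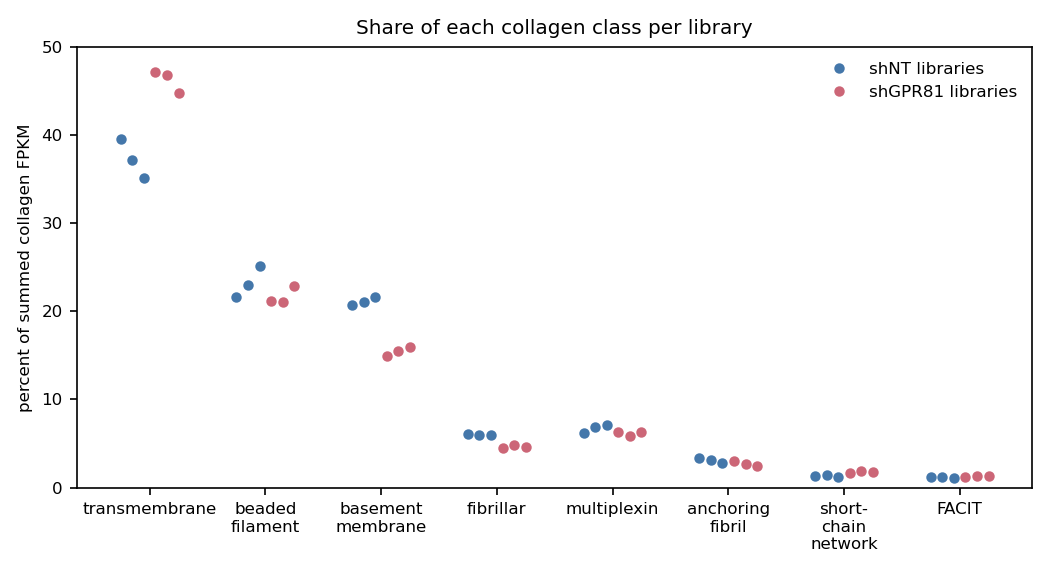
Percent of the summed FPKM of the 44 collagen genes held by each class, 1 point per library, with 3 shNT and 3 shGPR81 libraries per class. The transmembrane share lies at 35.1% to 39.5% in shNT and 44.8% to 47.1% in shGPR81, and the basement membrane share at 20.8% to 21.6% and 15.0% to 15.9%.

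The summed level of all collagen genes was 265 to 299.4 FPKM in shNT and 299.7 to 322 FPKM in shGPR81. Transmembrane collagens summed to 103 to 111 FPKM in shNT and 140 to 145 FPKM in shGPR81, nearly all of it COL13A1. Basement membrane collagens summed to 55.2 to 63.1 FPKM and 45.9 to 51.3 FPKM, and fibrillar collagens to 16.3 to 17.9 FPKM and 13.8 to 14.7 FPKM. In each of these classes the groups did not overlap. Beaded filament collagens (57.4 to 73.7 FPKM and 63.3 to 73.5 FPKM) and multiplexins (16.4 to 20.6 FPKM and 17.5 to 20.4 FPKM) overlapped between groups. As shares of the collagen sum, fibrillar genes held 5.98% to 6.12% in shNT and 4.49% to 4.79% in shGPR81. Shares are not independent of each other, since a higher COL13A1 lowers the share of every other class.

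By class, the median log2 fold change was -0.07 for the 4 tested fibrillar genes, -0.32 for the 3 tested basement membrane genes and 0.12 for the 12 tested genes of the other classes. Of the fibrillar genes none passed the adjusted p, of the basement membrane genes 1 fell, and of the others 1 fell and 4 rose. In the fibrillar class COL5A1 and COL1A1 had negative signs and COL27A1 and COL5A2 positive ones, and in the basement membrane class COL4A1 and COL4A2 were negative and COL4A5 positive. COL5A1, COL15A1 and COL27A1 lie on chromosome 9, where the median over 558 tested genes was 0.08 on the log2 scale. COL9A3 and COL20A1 lie on chromosome 20, where the median was -0.39, and neither reached the filter. In 7 of the 19 tested collagen genes, COL15A1, COL1A1, COL5A1, COL4A2, COL8A1, COL16A1 and COL18A1, annotated exons overlap exons on the opposite strand, and whether the counting used strand is not given in the sources used here.

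The enzymes, chaperones, receptors and proteases that act on collagen were taken from 7 lists of 83 genes, of which 64 were tested. TGM2 and MMP1 were called lower and LOXL1 and MMP14 higher, 4 of 64 beside 2.54% of all tested genes. By adjusted p alone 8 of the 64 fell and 4 rose, beside 3.07% and 2.06% of all tested genes. The median log2 fold change of the 64 was -0.02.

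Among the 15 genes of hydroxylation and glycosylation in the endoplasmic reticulum, 3 fell and 1 rose. PPIB, P4HB and PLOD1 were the highest, at means of 373, 271 and 73.5 FPKM. P4HA2, a catalytic subunit of prolyl 4-hydroxylase, had 19.2, 21.0 and 20.3 FPKM in shNT and 13.9, 14.2 and 14.5 FPKM in shGPR81 (log2 fold change -0.50, SE 0.06, adjusted p = 0.00383). Of the 3 lysyl hydroxylases, PLOD2 fell, PLOD1 rose and PLOD3 had overlapping groups (mean 37.3 FPKM, log2 fold change -0.03, adjusted p = 0.915). PLOD2, which modifies the telopeptides, had 34.4, 30.3 and 28.7 FPKM in shNT and 22.5, 22.4 and 21.3 FPKM in shGPR81 (-0.49, SE 0.08, adjusted p = 0.0120). PLOD1, which modifies the helix, had 56.2, 62.0 and 64.7 FPKM in shNT and 82.8, 84.1 and 90.9 FPKM in shGPR81 (0.50, SE 0.07, adjusted p = 0.00742). In none of these did the groups overlap. P4HA2 and PLOD1 kept an adjusted p under 0.05 in all 14 other settings and PLOD2 in 10. P3H2, a prolyl 3-hydroxylase of basement membrane collagen, had a log2 fold change of -0.25 (adjusted p = 0.0496), which was under 0.05 in 5 of 14 other settings, and P4HB, the shared subunit of prolyl 4-hydroxylase, had one of -0.08 with overlapping groups.

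Of 16 genes for folding and export, only FKBP7, a prolyl isomerase of the endoplasmic reticulum, passed (log2 fold change 0.39, adjusted p = 0.0221), and it did so in 8 of 14 other settings, with a highest adjusted p of 0.0985. SERPINH1, the collagen chaperone HSP47, led this list at a mean of 74.9 FPKM with a log2 fold change of 0.06 and overlapping groups, followed by SEC13 at 66.8 FPKM and FKBP10 at 54.6 FPKM. Of 8 genes for propeptide removal, 3 were tested (BMP1, PCOLCE2 and PCOLCE, at means of 6.24, 5.24 and 4.17 FPKM) and none passed. ADAMTS2, the main N-propeptidase of type I procollagen, was listed at 0.

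Cross-linking enzymes again moved both ways. TGM2, a transglutaminase, had 58.8, 71.8 and 75.9 FPKM in shNT and 38.1, 41.7 and 43.4 FPKM in shGPR81 (log2 fold change -0.74, SE 0.10, adjusted p = 0.00751). TGM2 lies on chromosome 20, and after centring each chromosome on its median its log2 fold change was -0.33 (adjusted p = 0.0987). LOXL1, a lysyl oxidase best known from elastic fibres, had 3.10, 3.78 and 3.77 FPKM in shNT and 5.88, 5.25 and 5.95 FPKM in shGPR81 (0.67, SE 0.11, adjusted p = 0.0145). It was called in 10 of 14 other settings, its fold being under 1.5 with a pseudocount of 1 FPKM and without shNT replicate 1, and its adjusted p above 0.05 in the fits lacking shGPR81 replicate 1 (0.0705) or 3 (0.0618). LOXL2 and PXDN, which cross-link type IV collagen, were higher in level, at means of 125 and 86.1 FPKM, with log2 fold changes of -0.06 and -0.08. LOX, the founding lysyl oxidase, had 10.1, 9.67 and 10.9 FPKM in shNT and 12.6, 12.5 and 12.5 FPKM in shGPR81, without overlap and with an adjusted p of 0.0562.

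Of 9 collagen-cutting proteases, 7 were tested, and 1 was called lower and 1 higher. MMP14, the membrane-bound collagenase, had 38.7, 44.1 and 43.9 FPKM in shNT and 62.1, 62.9 and 65.2 FPKM in shGPR81 (log2 fold change 0.59, SE 0.06, adjusted p = 0.00303). Its fold of 1.501 lay just above the threshold. Its adjusted p was under 0.05 in all 14 other settings but it was called in 9, its fold being under 1.5 with a pseudocount of 1 FPKM, median centring, quantile normalization, and without shNT replicate 1 or shGPR81 replicate 3. MMP1, the interstitial collagenase, had 3.10, 2.50 and 1.92 FPKM in shNT and 1.17, 0.972 and 1.19 FPKM in shGPR81 (-1.09, SE 0.19, adjusted p = 0.0183), without overlap. It was called in 10 of 14 other settings, its adjusted p being above 0.05 without shNT replicate 2 (0.0855) and in the fits lacking any 1 shGPR81 replicate (0.0540 to 0.0762). MMP15 (mean 1.44 FPKM) was the next in level, with a log2 fold change of -0.43 that did not pass.

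Of 11 collagen receptors, 8 were tested and none passed. ITGB1 (mean 480 FPKM) and ITGA2 (60.6 FPKM), the chains of the main collagen-binding integrin, had log2 fold changes of 0.01 and 0.24, and the receptor kinase DDR1 (15.2 FPKM) had one of 0.09. Of 17 matrix partners, 8 were tested. Among these, THBS1, TGFBI and FN1 fell and none rose, beside 3.07% and 2.06% of all tested genes. THBS1, encoding thrombospondin, had 28.7, 31.0 and 29.5 FPKM in shNT and 19.7, 20.3 and 20.6 FPKM in shGPR81 (log2 fold change -0.56, SE 0.05, adjusted p = 0.00208). FN1, encoding fibronectin, had a log2 fold change of -0.28 (adjusted p = 0.0148), TGFBI, whose protein binds collagen, one of -0.38 (adjusted p = 0.00956), and LAMC1, a laminin chain at a mean of 62.6 FPKM, one of -0.08. The adjusted p was under 0.05 in 14 of 14 other settings for THBS1, in 11 for TGFBI and in 10 for FN1.

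**Figure D4:**
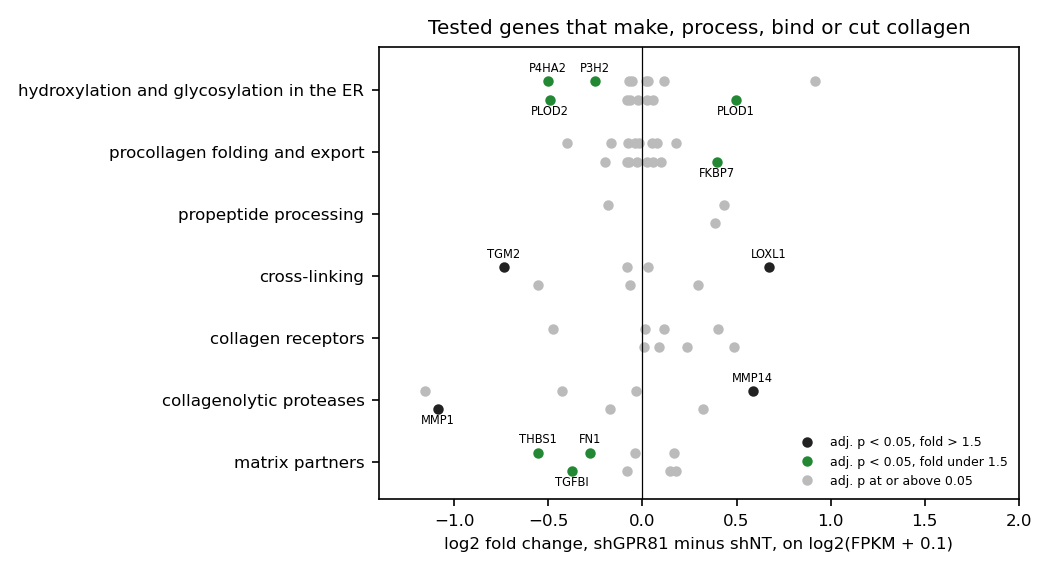
Log2 fold change, shGPR81 minus shNT on log2(FPKM + 0.1), of the 64 tested genes of 7 lists of collagen-handling genes, 1 point per gene and a row per list; vertical offsets within a row only separate the points. TGM2 (-0.74), MMP1 (-1.09), LOXL1 (0.67) and MMP14 (0.59) passed both thresholds.

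**Figure D5:**
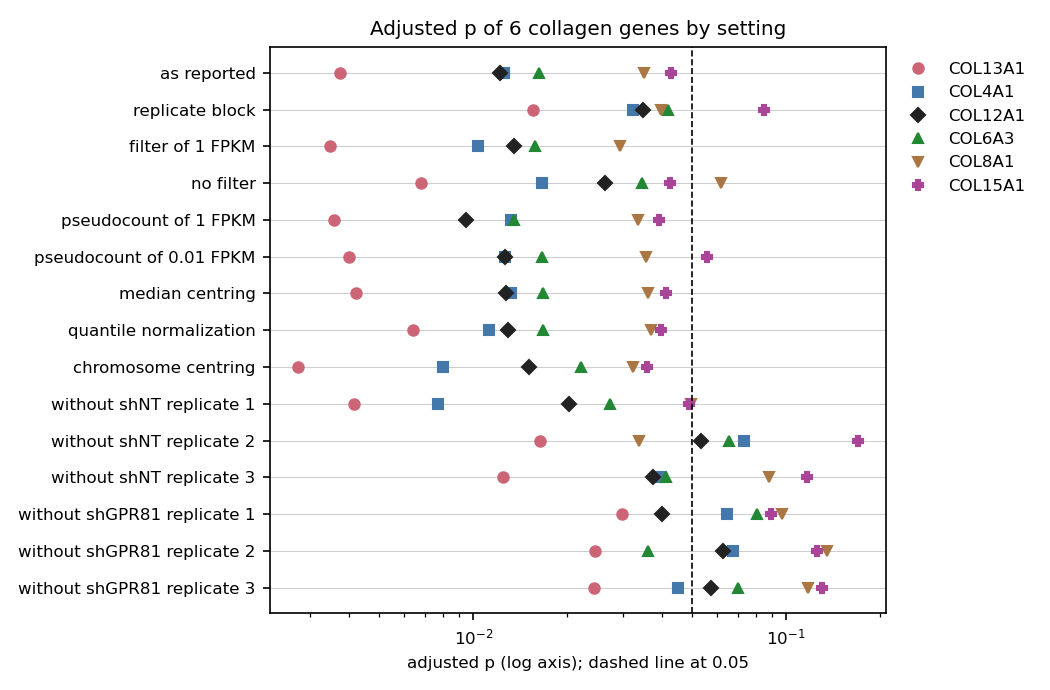
Adjusted p (log axis) of 6 collagen genes as reported and under 14 other settings, with a dashed line at 0.05; COL15A1 could not be tested with a filter of 1 FPKM. COL13A1 stays left of the line in every setting, and the other genes cross it in some of the fits without 1 library.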

How the data were processed

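RNA-seq libraries (TruSeq stranded mRNA, single-end, Illumina HiSeq) of 3 shNT and 3 shGPR81 samples were grouped by their labels. The authors deposited FPKM per gene symbol. The submitters' processing notes name TopHat2 2.0.13, Bowtie2 2.2.3, SAMtools 0.1.19 and Cuffnorm 2.2.1. These notes give a mouse build and the paper a human one, GRCh37. The cells and the symbols are human, so the human build was used. The annotation and strand setting of the counting are not given in the sources used here. Cuffnorm scales libraries to each other, so FPKM shows relative levels.

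From the deposited FPKM, log2(FPKM + 0.1) was fitted with limma 3.58.1 (lmFit, eBayes with trend) in R 4.3.3, on 14349 genes that reached 0.1 FPKM in 3 or more of the 6 libraries, with Benjamini-Hochberg adjustment over all of them, and with no block. Calls needed an adjusted p under 0.05 and a fold above 1.5. Exact two-sided permutation tests cannot go below p = 0.1 here. Intervals are at 95%. Whole reads were recovered where a gene's FPKM values are multiples of a common step, which held for 7816 of 15931 genes, among them 10 of the 19 tested collagen genes. Too few genes had them for a count test. The steps of these 10 imply a depth of 12700000 to 13800000 reads in shNT replicate 1. This depth carries the scaling by Cuffnorm and need not equal the number of reads sequenced. For COL12A1 and COL4A5, reads were estimated from FPKM, transcript length and the median of these implied depths. By this estimate, 3 reads correspond to 0.0191 FPKM for COL12A1 and to 0.0784 FPKM for COL9A2. For COL9A2 in shNT replicate 1 the estimate gives 69 reads, where 65 whole reads were recovered. The fit and the recovery were tested on simulated data.

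The collagen genes, their classes and the other gene lists were chosen with earlier results of these data known. All collagen genes were accounted for, with library values for those called or with a mean of at least 1 FPKM. Values of COL1A1, COL4A4 and some pathway genes were added after they had been seen. From each pathway list the called genes and the 3 highest were named, together with those of adjusted p under 0.05 and some chosen after their values were seen. Coordinates of genes are from GENCODE 44 on GRCh37, and promoter sequences from RefSeq on GRCh38.p14. The alternatives were a replicate block, each library left out, other filters and pseudocounts, median, quantile and chromosome centring.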

Additional observations from a re-analysis of the deposited data

How the results depend on the processing

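The collagen genes called were 1 lower and 2 higher. None was called lower with the replicate block, a filter of 1 FPKM (COL15A1 was then not tested) or a pseudocount of 1 or 0.01 FPKM. None was called higher with a pseudocount of 1 FPKM, 0 in either direction, where 2 genes in the lower and 4 in the higher direction still had an adjusted p under 0.05 and the fold is smaller by construction. All genes called were then 142 lower and 75 higher, against 228 and 137. Counts by adjusted p alone were added after seeing the data: 1 collagen gene lower with a pseudocount of 0.01 FPKM and 4 with quantile normalization, against 2. The median log2 fold change of the collagen genes was 0.16 with chromosome centring, against 0.07, and COL6A1 then had 0.0185 in place of -0.0774.

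Leaving out 1 library at a time gave 0 to 1 collagen gene called lower and 0 to 2 higher, 0 to 4 lower and 1 to 4 higher by adjusted p alone, and a median from -0.0481 to 0.115. All genes called ranged from 110 to 238 lower and from 68 to 156 higher. The log2 fold change of COL18A1 ranged from -0.0853 to 0.0816, of COL6A2 from -0.0481 to 0.148 and of COL5A2 from -0.0140 to 0.468. None of COL6A1, COL18A1, COL6A2 and COL5A2 was called in any setting. Over the collagen genes and settings, 238 log2 fold changes kept their sign and their call by both thresholds together, 16 lost the call, 1 gained it and 6 changed sign. By adjusted p alone, 21 of them were no longer under 0.05 and 8 newly were.

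The replicate block, which uses the numbers in the titles, left 0 collagen genes called lower and 2 higher, and 197 lower and 115 higher among all genes. By adjusted p alone it gave 3 lower and 4 higher, with COL4A2 (0.0413) and COL5A1 (0.0377) newly under 0.05 and COL15A1 (0.0851) no longer so. The deviations of equally numbered libraries correlated at 0.120, 0.0223 and 0.00577. Unequally numbered libraries were not compared, so these values cannot decide whether the numbers pair the libraries. The fit as reported had no block because the study's methods name none. COL15A1, COL1A1 and COL4A4 rest on under 100 reads per library. So do the tested genes COL9A2, COL16A1 and COL5A2, and by estimate COL4A5.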
